A study of Mus musculus with 16 samples.

Results

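The Ly6 genes of mouse chromosome 15 described here are Ly6a, Ly6c1, Ly6c2, Ly6e and Ly6i, 5 of the 21898 genes listed in an RNA-sequencing table of bone marrow-derived monocytes (BMDMs). They were taken by name. The family was selected on the measured iBRD9 response of Ly6a, whose read counts stood far lower with the inhibitor, so the iBRD9 differences of these genes are given as descriptions without a test. The study compared BMDMs of young wild-type C57BL/6 mice (C57BL/6J in the study's methods), grown from marrow of the leg bones, in 4 groups of 4 libraries. All groups received M-CSF at 50 ng/ml, on which macrophage-lineage cells depend for survival. The groups M + vector and M + iBRD9 had no RANKL, and MR + vector and MR + iBRD9 also received RANKL at 100 ng/ml, the signal for osteoclast differentiation. Vector stands for the control treatment, and iBRD9 is a compound that blocks the bromodomain of BRD9, which belongs to the non-canonical form of the BAF chromatin remodeller. By the study's account RNA was taken a day after inhibition began. The labels do not say whether the replicates of a group were separate cultures or animals. The p-values below therefore reflect the spread between libraries, which could be technical.

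Ly6 proteins are small surface proteins folded into a compact disulphide-bonded domain, and most are tied to the outer membrane by a glycosylphosphatidylinositol (GPI) anchor. In mouse blood and marrow they serve as the classic surface labels of cell types. Ly6a encodes Sca-1, the label of haematopoietic stem cells and of activated lymphocytes. Ly6c1 and Ly6c2 encode the forms of Ly6C, which separates classical inflammatory monocytes from patrolling ones, and Ly6e and Ly6a are known as genes that interferon induces.

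The 5 genes lie in a row within the Ly6 cluster of GRCm39, in the order Ly6e, Ly6i, Ly6a, Ly6c1 and Ly6c2, with no other listed gene between them. Ly6e (ENSMUSG00000022587, chromosome 15, 74826900 to 74831754) is on the plus strand. On the minus strand follow Ly6i (ENSMUSG00000022586, 74851383 to 74855279), Ly6a (ENSMUSG00000075602, 74866726 to 74869880), Ly6c1 (ENSMUSG00000079018, 74915867 to 74920679) and Ly6c2 (ENSMUSG00000022584, 74980007 to 74983819). The sequences just upstream of the minus-strand genes resemble each other, and 2 of the 6 pairs are near copies. The other 4 pairs were 72.9% to 83.3% identical over 72 to 222 aligned bases. Local alignment of the 250 bases before each gene's listed 5′ end paired Ly6a with Ly6c1 over 143 bases, 142 of them identical (99.3%), although Ly6a had 3589 counts over all libraries and Ly6c1 had 4. In the pair below, capitals mark the base that differs. The Ly6a stretch is chr15:74869881-74870023, the 143 bases that end at its listed start, and the Ly6c1 stretch is chr15:74920787-74920929, which ends 107 bases short of its own. The match runs to the downstream end of the 250 bases of Ly6a and the upstream end of those of Ly6c1. Its full extent was therefore not measured. Both stretches are GRCm39, minus strand, 5′ to 3′.
Ly6a: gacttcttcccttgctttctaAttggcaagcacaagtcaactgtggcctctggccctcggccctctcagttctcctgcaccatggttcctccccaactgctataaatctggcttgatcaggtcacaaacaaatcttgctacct
Ly6c1: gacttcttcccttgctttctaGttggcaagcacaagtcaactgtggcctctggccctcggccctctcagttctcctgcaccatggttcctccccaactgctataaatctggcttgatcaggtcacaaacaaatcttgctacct

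Ly6c2 and Ly6i formed the other close pair, identical at 144 of 157 aligned bases (91.7%). They are shown as the second near copy, and the RANKL differences of these genes with vector, 2.14 for Ly6i and -0.02 for Ly6c2 on the log2 scale, were not tested against each other. Capitals again mark bases that are not shared. The Ly6c2 stretch is chr15:74983910-74984067 and the Ly6i stretch is chr15:74855291-74855447, both GRCm39, minus strand, 5′ to 3′.
Ly6c2: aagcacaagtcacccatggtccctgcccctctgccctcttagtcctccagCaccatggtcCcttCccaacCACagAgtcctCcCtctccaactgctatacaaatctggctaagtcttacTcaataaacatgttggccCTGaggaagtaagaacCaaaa
Ly6i: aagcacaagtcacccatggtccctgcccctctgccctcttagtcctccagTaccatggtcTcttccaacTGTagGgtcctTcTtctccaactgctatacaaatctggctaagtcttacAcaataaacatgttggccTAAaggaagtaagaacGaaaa

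Ly6e aligned to the other 4 over at most 19 bases. None of the 5 windows of 250 bases held the interferon-stimulated response element, searched on both strands as GAAA, any 2 bases and GAAA, which 3.055% of 21834 windows of the same length held. None held the gamma-activated site TTCNNNGAA (7.218% of windows), the AP-1 site TGANTCA (6.073%) or the kappaB motif (7.841%). No match says only that these letters are not in these windows.

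Copies within the transcripts limit how well reads can be told apart. Of all 50-base stretches in the annotated transcripts of each gene, 39.87% of those of Ly6c1, 34.66% of those of Ly6c2 and 16.61% of those of Ly6a also occur in a transcript of another gene. The figure was 5.54% for Ly6i and 0% for Ly6e. Ly6c1 and Ly6c2 share 1125 such stretches. Levels of Ly6c1, Ly6c2 and, less so, Ly6a are therefore uncertain to the extent that reads were dropped or split between copies, and no stretch of Ly6e is shared.

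Total counts per library ranged from 15372775 to 18987926. All 12 macrophage markers examined were detected in every group, which fits the labelled cell type. Their summed levels lay between 23010 and 27360 CPM (counts scaled to a common library size with TMM factors). Lyz2 made up most of that sum, with group means from 16550 CPM (M + vector) to 19970 CPM (MR + vector). Brd9 itself stood at 55.7 ± 2.36 CPM (SD, n = 4) in M + vector and 54.1 ± 3.40 in MR + iBRD9. The quasi-likelihood test of edgeR was run on 11559 genes, and called means an adjusted p (Benjamini-Hochberg, over all of them) below 0.05. Of the 5 Ly6 genes, 4 passed the filter on low counts. Ly6c1 did not, and Ly6i passed only through MR + vector, the 1 group in which all 4 of its libraries reached 0.59 CPM, so that it had to be higher there.

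The levels of the 5 genes spanned orders of magnitude. On the length-scaled FPKM of the authors, Ly6e was highest in every group, at 129.6 ± 5.36 for M + vector (SD, n = 4) and 118.0 ± 4.53 for M + iBRD9. With RANKL it reached 332.0 ± 25.6 for MR + vector and 292.5 ± 8.78 for MR + iBRD9. By mean FPKM it ranked 93 of 21898 genes in MR + vector and 314 in M + vector. Ly6a came next, at 7.96 ± 0.68 FPKM for M + vector, 3.18 ± 0.88 for M + iBRD9, 24.2 ± 4.78 for MR + vector and 9.49 ± 0.88 for MR + iBRD9. Its rank moved between 2043 in MR + vector and 7797 in M + iBRD9. Ly6e thus made up between 92.78% and 96.56% of the FPKM of the family on group average, and Ly6a between 2.58% and 6.71%.

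Ly6c2 lay near 1 FPKM or below, at 0.978 FPKM for M + vector, 0.954 for M + iBRD9, 0.985 for MR + vector and 0.568 for MR + iBRD9. Ly6i followed with 0.185, 0.184, 0.857 and 0.387 FPKM in the same order of groups. The order Ly6e, Ly6a, Ly6c2, Ly6i, Ly6c1 was the same in all 4 groups. Ly6e and Ly6a overlapped with no neighbour in any group. Ly6c2 and Ly6i overlapped in both groups with RANKL, where in MR + vector Ly6c2 ranged from 0.631 to 1.145 FPKM and Ly6i from 0.610 to 1.238. Without RANKL the overlapping neighbours were Ly6i and Ly6c1.

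**Figure D1:**
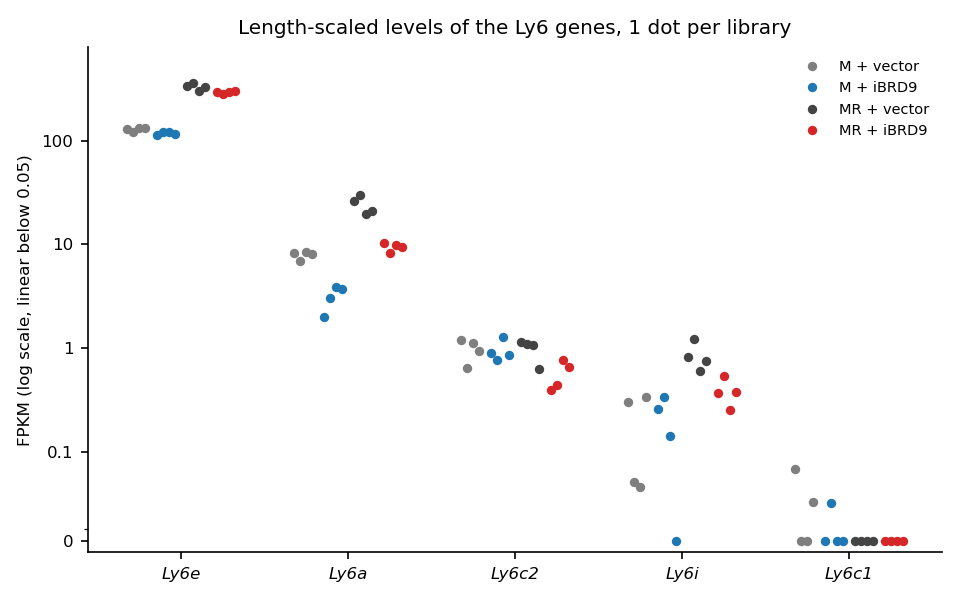
FPKM of the 5 Ly6 genes on a log axis that turns linear below 0.05, 1 dot per library and 1 colour per group. Ly6e sits above 100 FPKM in all 16 libraries, Ly6a lies between 1.99 and 30.0, and Ly6c1 is at 0 in 13 libraries.

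Ly6c1 was close to absent. It had 4 counts in all 16 libraries, 2 in replicate 1 and 1 in replicate 4 of M + vector, and 1 in replicate 2 of M + iBRD9. The 3 counts of M + vector have an exact Poisson 95% interval of 0.619 to 8.77. The 8 libraries with RANKL held none, and a count of 0 allows up to 3 counts, or at most 0.195 CPM, in a library. Such limits cover counting error only. No comparison of Ly6c1 was detectable at this depth.

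RANKL and the Ly6 genes were examined first in vector-treated cells. Ly6a and Ly6e rose and Ly6c2 was not called, where 20.1% of all genes tested were called higher. The libraries of Ly6a and Ly6e did not overlap between groups, which held for 18.9% of genes in that direction. Ly6i is left out of these counts and described without a test, since it passed the filter only through MR + vector. The median change over all genes tested was -0.001 on the log2 scale. In bulk RNA, fewer cells of a type and less RNA per cell cannot be told apart.

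Ly6a, which encodes Sca-1, had 10.2, 8.49, 10.3 and 9.82 CPM in replicates 1 to 4 of M + vector, and 31.3, 36.1, 23.45 and 25.2 CPM in those of MR + vector. Every library with RANKL was above every library without it. The rise was 2.98-fold, 1.58 ± 0.13 on the log2 scale (edgeR quasi-likelihood test, adjusted p = 8.41e-12). These libraries also enter the contrasts that chose Ly6a. Replicates 1 and 2 of MR + vector were the highest, and leaving out single libraries gave 1.45 to 1.67.

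Ly6e, an interferon-inducible gene whose product limits the entry of coronaviruses and serves in mouse as the receptor of the placental fusion protein syncytin-A, had 500.3, 464.6, 502.5 and 514.9 CPM in M + vector. In MR + vector it had 1279, 1367, 1134 and 1222 CPM, all far above. The rise of 2.52-fold, 1.33 ± 0.04 on the log2 scale (edgeR, adjusted p = 6.266e-22), was the most precisely measured of the family. It rests on 7774 to 21411 counts per library.

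Ly6i, a relative of Ly6C known from mouse marrow, rested on few reads. It had 6, 1, 1 and 7 counts in M + vector and 15, 22, 12 and 15 in MR + vector, without overlap. In CPM the means were 0.217 ± 0.185 and 0.986 ± 0.313 (SD, n = 4), a 4.42-fold difference of 2.14 ± 0.55 on the log2 scale. MR + vector is the group through which Ly6i passed the filter, so the filter itself favoured a higher value there and no p is given.

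Ly6c2, which encodes the Ly6C of inflammatory monocytes, had 3.33, 1.79, 3.07 and 2.64 CPM in M + vector and 3.13, 2.98, 2.92 and 1.71 in MR + vector. The groups overlapped widely. The difference was -0.02 ± 0.25 on the log2 scale, with a 95% interval of -0.53 to 0.49 (edgeR, adjusted p = 0.9602), which leaves room for changes of about that size in either direction.

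**Figure D2:**
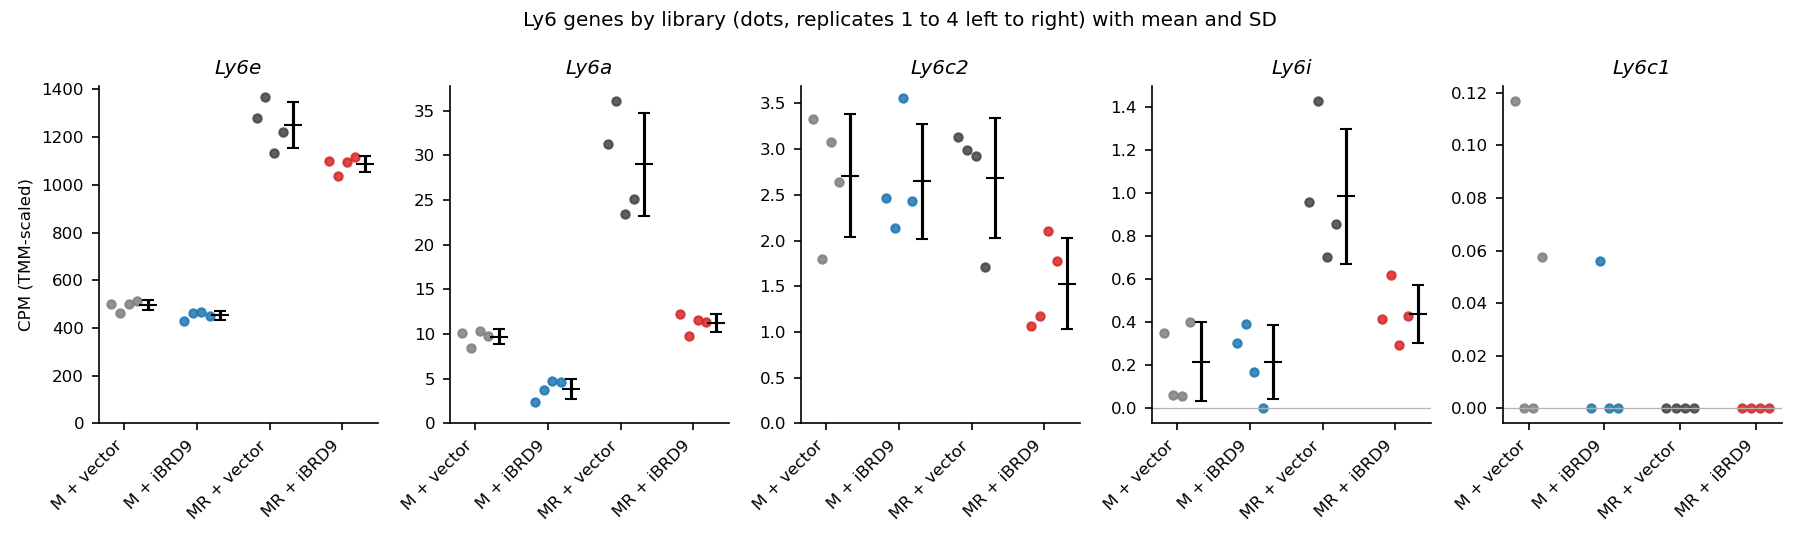
CPM of each Ly6 gene in every library, 1 panel per gene with its own axis, dots for replicates 1 to 4 from left to right and bars for the mean and SD of 4 libraries (no bars for Ly6c1, which had 4 counts in all). Ly6a and Ly6e are higher in all RANKL libraries than in those with the same treatment and no RANKL, and Ly6a is lower with iBRD9 in both settings.

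The same RANKL contrast under iBRD9 used the other 8 libraries, which also enter the contrasts that chose Ly6a. Ly6a and Ly6e rose again, among 24.6% of genes tested that were called higher, and Ly6c2 fell, among 25.8% called lower. Ly6a had 2.41, 3.71, 4.79 and 4.64 CPM in M + iBRD9 and 12.2, 9.76, 11.6 and 11.3 in MR + iBRD9. The rise of 2.87-fold, 1.52 ± 0.16 on the log2 scale (edgeR, adjusted p = 1.151e-09), was close in size to that with vector, from a lower start. Replicate 1 of M + iBRD9 was the lowest of all 16 libraries for Ly6a.

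Ly6e went from 427.7, 464.1, 468.6 and 449.9 CPM in M + iBRD9 to 1101, 1037, 1095 and 1116 CPM in MR + iBRD9. The groups did not overlap, and the rise was 2.40-fold, 1.26 ± 0.04 on the log2 scale (edgeR, adjusted p = 1.835e-21). Ly6i had 5, 7, 3 and 0 counts in M + iBRD9 and 7, 10, 5 and 7 in MR + iBRD9. Here the groups overlapped, and the difference of 1.02 ± 0.62 was not called (95% interval -0.25 to 2.29, edgeR, adjusted p = 0.1788).

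Ly6c2 had 2.47, 2.13, 3.56 and 2.43 CPM in M + iBRD9 and 1.07, 1.17, 2.10 and 1.78 in MR + iBRD9. Each library with RANKL was below each without it, 2.10 and 2.13 CPM being the closest values. Such separation held for 21.5% of all genes in this direction and, for Ly6a and Ly6e, for 21.4% in the other. The fall was to 0.58 of the level without RANKL, -0.79 ± 0.27 on the log2 scale (edgeR, adjusted p = 0.01537), with 18 to 64 counts per library. Leaving out replicate 3 of M + iBRD9 ended the call (adjusted p = 0.08891), as did a fit without replicate 1 (0.0649) or 2 (0.05492) of MR + iBRD9.

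Markers of neutrophils, which carry Ly6C and the related Ly6G, were set beside Ly6c2. All 10 were detected in each group, and their summed level was 97.6 to 102.4 CPM for M + vector, 90.8 to 123.9 for M + iBRD9, 86.4 to 101.6 for MR + vector and 61.2 to 74.9 for MR + iBRD9. In the RANKL contrast with iBRD9, 6 of the 9 tested fell and 1 rose, where 25.8% and 24.6% of all genes did. Mpo changed by -1.34 ± 0.23 and S100a9 by -0.83 ± 0.13 on the log2 scale, while Mmp8, a neutrophil collagenase, rose by 0.51 ± 0.09. Ly6g, the gene of the defining neutrophil label, had 7 counts in all 16 libraries. The part of such cells in the Ly6c2 difference was not tested.

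The iBRD9 contrasts include the one that chose the family, so they carry no test here and nothing is read from the shares of all genes beside them. With RANKL, Ly6a stood at 31.3, 36.1, 23.45 and 25.2 CPM with vector and 12.2, 9.76, 11.6 and 11.3 with iBRD9. The mean with iBRD9 was 38.8% of the vector mean, single libraries lying between 33.7% and 42.2%, and the fitted difference was -1.36 ± 0.13 on the log2 scale. Without RANKL the mean was 40.1% of the vector mean, with libraries between 24.9% and 49.4%, and the difference was -1.31 ± 0.16. In both settings all libraries with iBRD9 were below all libraries with vector. The level in MR + iBRD9 (9.76 to 12.2 CPM) overlapped that of M + vector (8.49 to 10.3 CPM).

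Ly6e kept most of its level with iBRD9. With RANKL the iBRD9 mean was 87% of the vector mean, with a difference of -0.20 ± 0.04 on the log2 scale and no overlap (1037 to 1116 against 1134 to 1367 CPM). Without RANKL it was 91.3%, with a difference of -0.13 ± 0.04, and the libraries overlapped. With RANKL the iBRD9 libraries of Ly6a, Ly6e and Ly6i lay wholly below the vector libraries, where 5.98% of all genes did so, and Ly6i had passed the filter through that vector group. Without RANKL those of Ly6a did, where 5.34% of all genes did so.

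Ly6i stood at 44.5% of the vector mean with RANKL, -1.15 ± 0.49 on the log2 scale, with 7, 10, 5 and 7 counts beside 15, 22, 12 and 15. Without RANKL its difference was -0.02 ± 0.70 (95% interval -1.46 to 1.41), between groups with 15 counts each. Ly6c2 stood at 57% with RANKL, -0.80 ± 0.27, and the groups overlapped because replicate 4 of MR + vector, at 1.71 CPM, lay below 2 of the iBRD9 libraries. Without RANKL the difference of Ly6c2 was -0.03 ± 0.25. Values of all 4 genes were thus lower with iBRD9 in the presence of RANKL. Without RANKL Ly6a stood at -1.31 and the other 3 between -0.13 and -0.02, and the interval of Ly6i takes in the value of Ly6a. Differences between the genes were not tested.

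**Figure D3:**
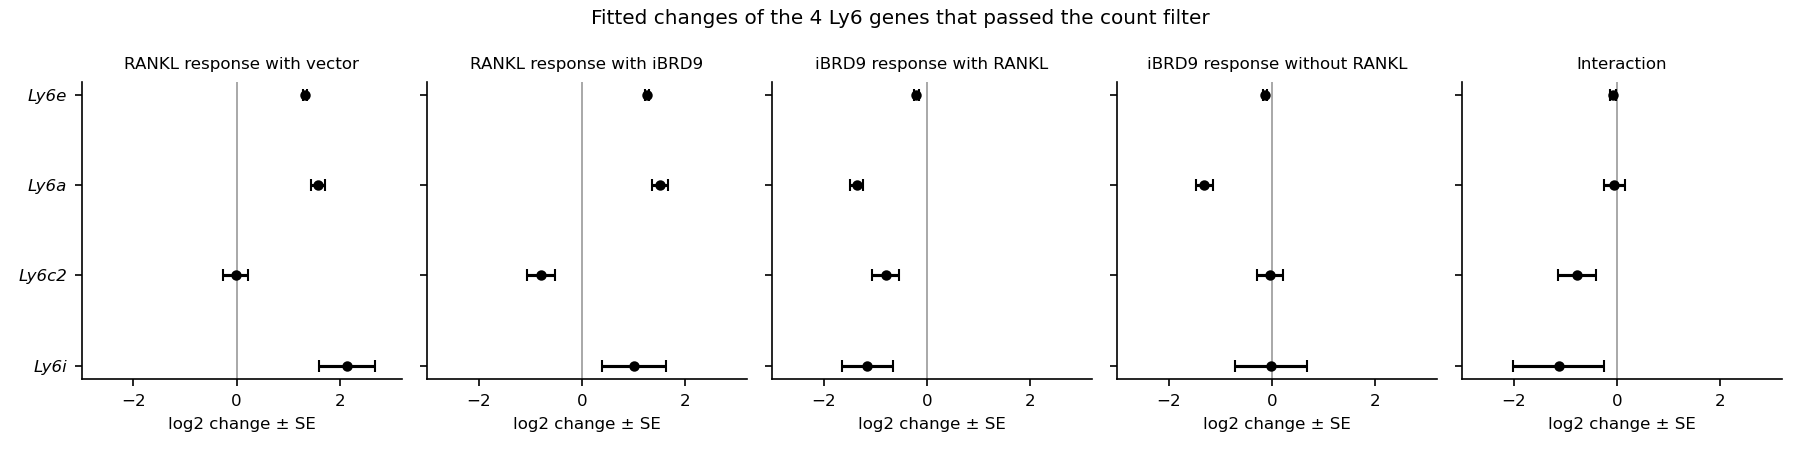
Fitted log2 changes with standard errors (bars) of Ly6e, Ly6a, Ly6c2 and Ly6i in the RANKL contrasts, the iBRD9 contrasts and the interaction, from the fit of all 16 libraries. Ly6a lies near -1.3 in both iBRD9 contrasts, and Ly6e at -0.20 with RANKL and -0.13 without it. Ly6i has the widest bars throughout.

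Whether the RANKL response differed with iBRD9 was asked by the interaction, the difference of the 2 RANKL responses. It was called for neither Ly6c2 nor Ly6e in the edgeR fit, where 2.08% of all genes were called. The values were -0.77 ± 0.37 for Ly6c2 (95% interval -1.52 to -0.01, adjusted p = 0.3502) and -0.07 ± 0.06 for Ly6e (-0.20 to 0.06, adjusted p = 0.6814). The interval of Ly6c2 reaches just short of 0 before adjustment over all genes. For Ly6a the interaction was -0.05 ± 0.21, with an interval of -0.49 to 0.38, and for Ly6i -1.13 ± 0.88, with an interval of -2.91 to 0.66, both given without a test.

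Markers of other cells that carry Sca-1 were set beside Ly6a. The 6 endothelial markers summed to 10.3 to 13.3 CPM for M + vector, 7.29 to 7.64 for M + iBRD9, 14.4 to 16.8 for MR + vector and 7.65 to 10.2 for MR + iBRD9. Like Ly6a, the sum was lower with iBRD9 in both settings, without overlap. Most of that sum was Kdr, the VEGF receptor gene, which was lower with iBRD9, at -1.0 ± 0.12 with RANKL and -0.74 ± 0.13 without it (edgeR, adjusted p = 1.726e-06 and 0.0002866). Without Kdr the sums were 1.38 to 2.63, 1.09 to 2.05, 1.05 to 1.60 and 1.46 to 1.98 CPM. Tek had no count in M + iBRD9 or MR + vector, and Cldn5 had none in MR + iBRD9. The part of endothelial cells in the Ly6a difference was not tested.

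Of the T and NK cell markers, Cd3e, Cd3d and Cd8a had no count in any library, and the sum without Cd4 was 0.115 to 1.17 CPM over all libraries. The 9 progenitor markers summed to 21.5 to 23.4 CPM for M + vector, 19.2 to 26.2 for M + iBRD9, 25.4 to 29.1 for MR + vector and 32.2 to 34.3 for MR + iBRD9. Most of that sum was Procr, the endothelial protein C receptor, which under RANKL was higher with iBRD9 by 0.35 ± 0.09 (edgeR, adjusted p = 0.02039), where Ly6a was lower. Without Procr the sums were 4.45 to 8.31 CPM and overlapped between all groups. B cell markers summed to 1.67 to 3.90 CPM and dendritic cell markers to 0.612 to 1.94 over all libraries. The 9 stromal markers summed to 15.2 to 20.2 CPM for M + vector, 15.6 to 19.5 for M + iBRD9, 8.88 to 11.8 for MR + vector and 8.82 to 17.8 for MR + iBRD9. Their mean sums were lower in both groups with RANKL, where Ly6a was higher. The part of these cells in the Ly6 differences was not tested.

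The rest of the Ly6 and uPAR family was mostly silent. Of 34 other genes of the family looked for, 33 were listed, 16 had a count and 4 could be tested. Ly6m, next to Ly6e in the cluster, had 99 counts over all libraries, and 17 listed genes, among them Ly6d, Ly6f, Ly6h and Ly6k, had none. Plaur is the urokinase receptor that focuses proteolysis at the cell surface. Under RANKL it rose by 0.48 ± 0.09 with vector and 0.90 ± 0.09 with iBRD9 (edgeR, adjusted p = 3.228e-05 and 2.321e-10). Cd177, a neutrophil surface gene, fell by 1.19 ± 0.49 under RANKL with iBRD9 (adjusted p = 0.04254). None of the 4 was called in either iBRD9 contrast, where at most 3.73% of all genes were called in 1 direction, so that little can be read from the count.

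Genes that build or share the GPI anchor were set beside the family. Under RANKL with vector, 20.1% of all genes tested were called higher and 20.6% lower. Of 30 tested genes of GPI synthesis and remodelling, 4 rose and 3 fell in that contrast, with a median of -0.013. None was called in either iBRD9 contrast, where few of all genes were, 0.718% higher and 2.05% lower with RANKL and 3.08% higher and 3.73% lower without it, so that little can be read from the count. Pgap1, which removes the inositol acyl chain of new anchors, fell by 0.82 ± 0.07 under RANKL with vector. Of 15 other tested GPI-anchored surface genes, 7 rose and 2 fell under RANKL with vector, beside the same 20.1% and 20.6%, with a median of 0.64. The complement regulator Cd55 rose by 4.0 ± 0.22 and the MHC class Ib gene H2-Q7 by 2.81 ± 0.38, while Cd109 fell by 0.67 ± 0.09. With iBRD9 and RANKL 1 of the 15 was lower (2.05% of all genes), Cd48 at -0.18 ± 0.05, and without RANKL 1 was higher (3.08% of all genes), Cd52 by 0.23 ± 0.06.

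Interferon-stimulated genes were set beside the family because Ly6e and Ly6a are counted among such genes. All 21 tested rose under RANKL with vector (median 0.753, beside 1.58 for Ly6a and 1.33 for Ly6e), where 20.1% of all genes were called higher. They also all rose under RANKL with iBRD9 (median 0.752), where 24.6% of all genes were called higher. With iBRD9, 15 of 21 were lower in the presence of RANKL (median -0.249) and 13 of 21 without it (median -0.268), where 2.05% and 3.73% of all genes were called lower. Irf7, a transcription factor that amplifies interferon production, had the largest iBRD9 difference of the list with RANKL, -0.44 ± 0.06. The value of Ly6a, -1.36, lay beyond all 21, and that of Ly6e, -0.20, within their range. Ly6a was chosen because it stood far lower with iBRD9, so its place beyond the list was favoured by that choice and nothing is read from it. This list was chosen with earlier results of these data known, among them the iBRD9 response of such genes. Its directions under RANKL and iBRD9 are therefore no independent evidence.

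Genes of the Ly6C-high and Ly6C-low monocyte states were set beside Ly6c2. Of 10 Ly6C-high genes, 2 rose and 5 fell under RANKL with vector (median -0.327), where 20.1% of all genes rose and 20.6% fell. The chemokine receptor Ccr2, which draws classical monocytes out of the marrow, fell by 1.25 ± 0.08 and the transglutaminase subunit F13a1 changed by -1.66 ± 0.13, while the proteoglycan Vcan rose by 2.38 ± 0.20. In the same contrast Ly6c2 stood at -0.02. Under RANKL with iBRD9, 2 of the 10 rose and 7 fell (median -0.643), where 24.6% of all genes rose and 25.8% fell. Ly6c2 stood at -0.79 there. With iBRD9 and RANKL, Ccr2 (-0.88 ± 0.10) and Vcan (-0.59 ± 0.17) were lower, and Ly6c2 was at -0.80. Of 9 Ly6C-low genes, 4 rose and 2 fell under RANKL with vector, beside 20.1% and 20.6% of all genes. Changes there were 2.92 ± 0.08 for Cx3cr1 and -1.42 ± 0.20 for Cd300e. None of the 9 was called in either iBRD9 contrast, where at most 3.73% of all genes were called in 1 direction.

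**Figure D4:**
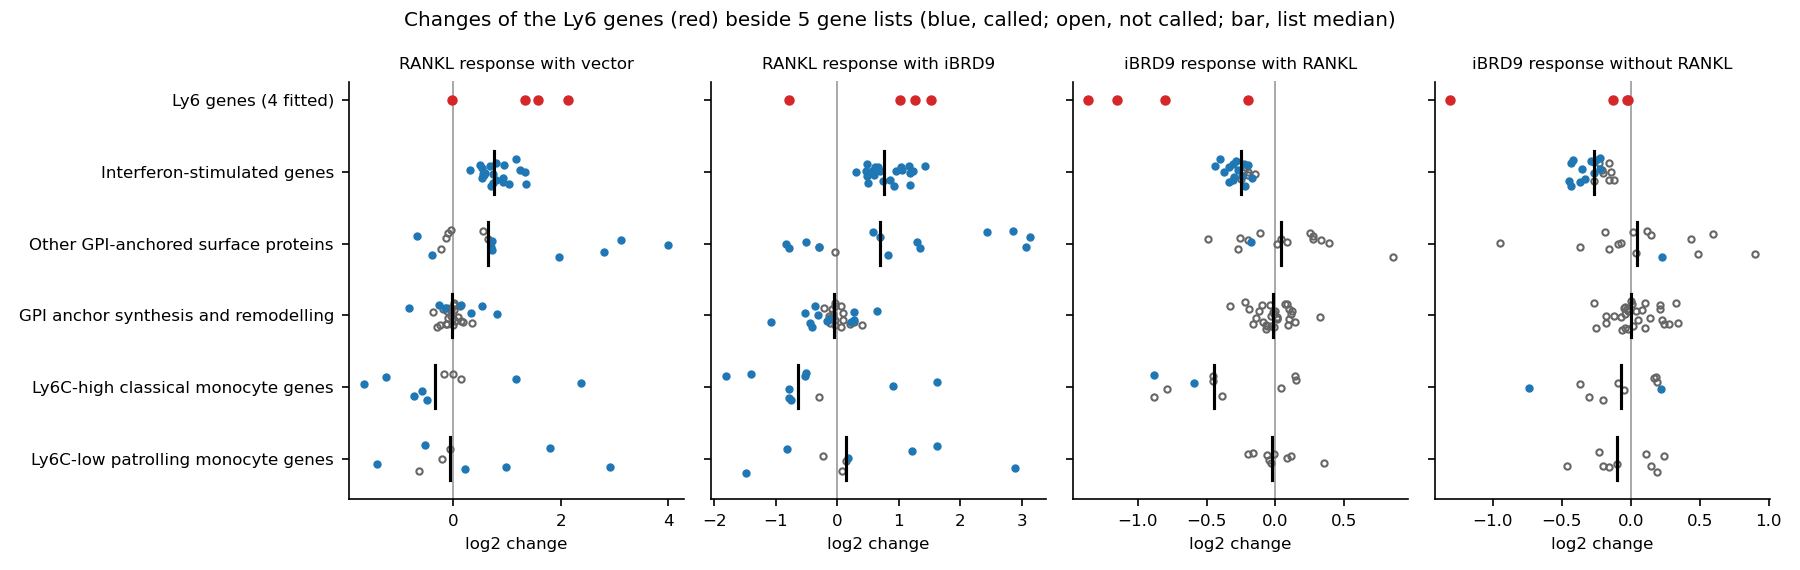
Log2 changes of the 4 fitted Ly6 genes (red) and of the genes of 5 lists (blue where called, open where not), with bars for the medians of the lists and 1 panel per comparison on its own axis. All 21 interferon-stimulated genes lie to the right of 0 in both RANKL panels, and Ly6a lies farther left than any of them in both iBRD9 panels. Ly6a was chosen for its lower counts with iBRD9, and the list with earlier results of these data known.

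For each fitted gene, the genes with the most similar profile were found as those with the smallest root mean square difference of centred log2 CPM over the 16 libraries, among 9733 or 9734 genes of at least 5 CPM in the highest group. The points share libraries and depth, so this is a description. Closest to Ly6a was Ctsk, the collagen-degrading cathepsin of osteoclasts, with a difference of 0.324 where Ly6a itself varied by 1.006 about its mean. Ctsk stood at 6.37 ± 0.98 CPM with vector and 2.81 ± 0.997 with iBRD9 in the absence of RANKL, and at 15.1 ± 0.81 and 5.56 ± 0.67 in its presence (SD, n = 4). Slfn1 (0.4) and Slfn4 (0.428), of the Schlafen family of interferon-inducible genes, came next.

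Closest to Ly6e were Kcnj2, an inward rectifier potassium channel (0.092, where Ly6e varied by 0.658), Acsl1, an acyl-CoA synthetase of long-chain fatty acids (0.118), and Rnf149, a ubiquitin ligase (0.124). None of these was called in either iBRD9 contrast, with differences between -0.10 and -0.03. At most 3.73% of all genes were called there in 1 direction. Closest to Ly6i were Ifi209 (0.275), Pkd1l2 (0.279) and the interferon-induced kinase gene Cmpk2 (0.285), where Ly6i varied by 0.515. Single libraries of Ly6i lay between 0 and 1.43 CPM, so the 0.5 CPM added before the logarithm shrinks its differences. The fitted RANKL change with vector was 2.14 for Ly6i, beside 0.67 for Ifi209, 0.92 for Pkd1l2 and 0.71 for Cmpk2. Little can therefore be read from these matches. Closest to Ly6c2 were Tesk2 (0.227), Gng7 (0.255) and the stress-induced transcription factor Ddit3 (0.257), where Ly6c2 itself varied by 0.398.

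**Figure D5:**
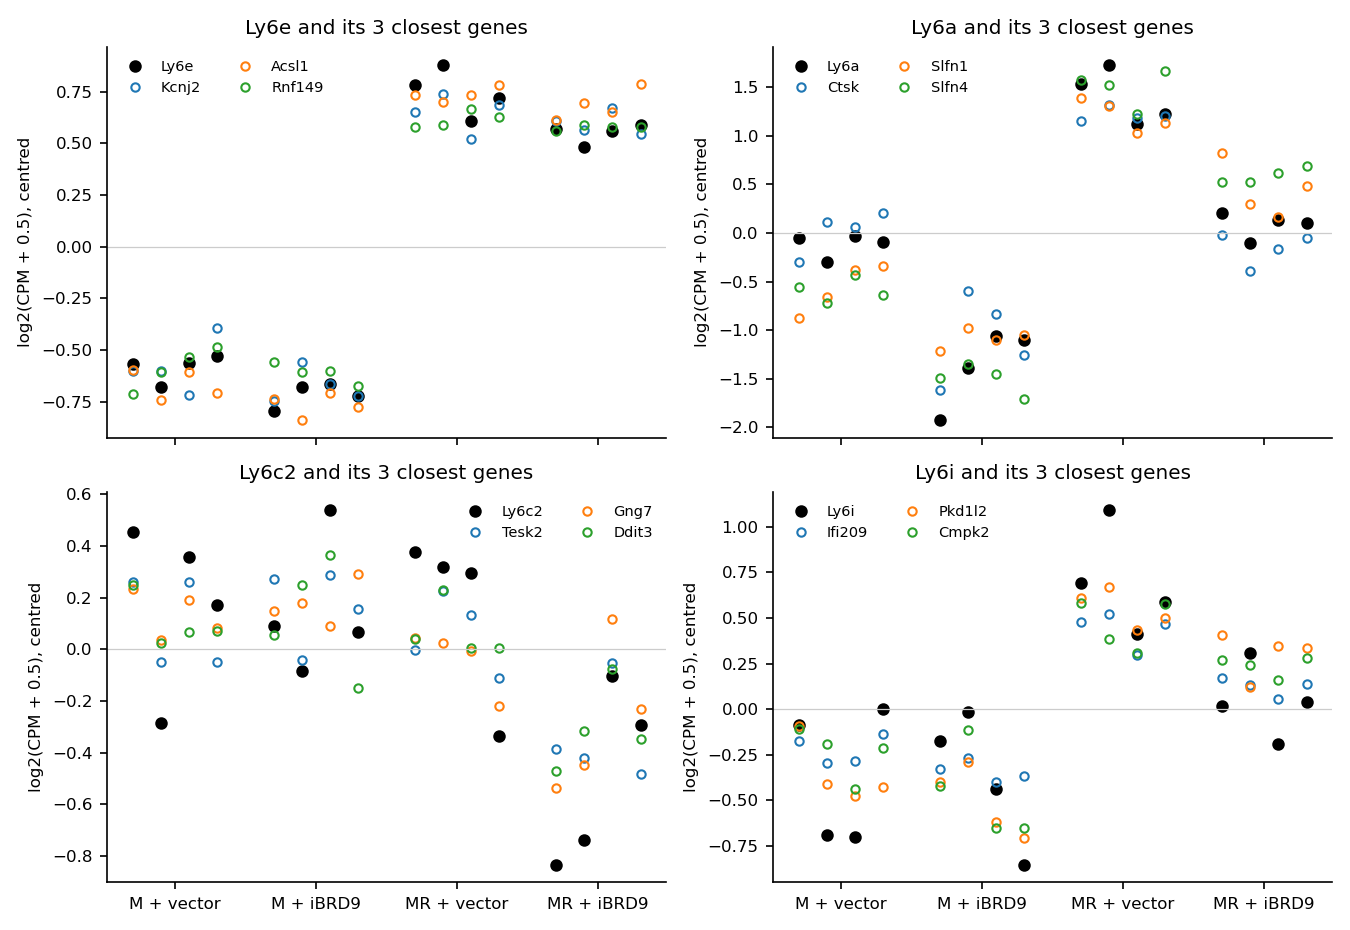
Log2(CPM + 0.5) centred on the mean of 16 libraries for each fitted Ly6 gene (filled) and its 3 most similar genes (open), libraries ordered by group and replicate. Ctsk follows Ly6a through all 4 groups, and the genes closest to Ly6c2 spread less than Ly6c2 does within a group.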

How the data were processed

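RNA of BMDMs in 4 groups of 4 libraries was sequenced, and the authors used Cutadapt for trimming, HISAT2 for alignment to GRCm39 and HTSeq for counting per gene. The authors deposited raw read counts, with no normalization, and FPKM values that were made from the same counts, the gene length and the library total (matching within a relative difference of 7.7e-06). Strand setting and annotation release are not given in the sources used here. Every column could be tied to a labelled sample (0 columns without one).

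The counts were fitted with edgeR 4.0.16 in R 4.3.3 (filterByExpr by group, TMM factors, a mean per group, quasi-likelihood test, two-sided, Benjamini-Hochberg adjustment over 11559 genes, 12 residual degrees of freedom), after the script had been tested on simulated data. Of the genes listed, 10339 did not enter, and 42 rows shared a symbol. The 24 replicate pairs differed by more than counting error (chi-square per degree of freedom 2.81 to 11.3). The comparisons were RANKL with vector, RANKL with iBRD9, iBRD9 with RANKL, iBRD9 without RANKL and their interaction. Changes are on the log2 scale as estimate ± SE. DESeq2 1.42.0, other scalings and filters, a replicate block, fits of the compared groups alone and the omission of each library were run as alternatives.

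The text names all 5 Ly6 genes, up to 3 called genes in each direction per list and comparison, the 3 genes closest to each Ly6 gene (pseudocount 0.5) and Brd9. Members of the family and the gene lists were chosen with earlier results of these data known. Sequences were read from GRCm39 upstream of the starts in the deposited table and aligned with Biopython 1.88, and shared stretches were counted in the GENCODE transcripts. Promoter motifs were searched on both strands. At these depths (15372775 to 18987926 counts), Ly6i, Ly6c1 and Ly6c2 carry wide counting error.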

Additional observations from a re-analysis of the deposited data

Results flagged for a closer look

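Ly6c2 in MR + vector was the only one of 16 sets of 4 libraries (4 Ly6 genes in 4 groups) with a library far from the others. Replicate 4 stood at 1.712 CPM, below the other 3 at 2.924 to 3.129 CPM, and the gap was 0.855 of the whole range, above the 95% critical value of Dixon's test. Chance puts about 1 in 20 such sets past that value.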

How the results depend on the processing

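Ly6a and Ly6e kept their RANKL calls with vector and with iBRD9 under every alternative run. Ly6i, which entered the fit only through MR + vector, had no value with at least 10 counts in 8 libraries. No direction of a called change turned. With single libraries left out, the Ly6c2 response to RANKL with iBRD9 ranged from -0.98 to -0.60 on the log2 scale (adjusted p = 0.007199 to 0.08891), and the Ly6i difference under iBRD9 without RANKL from -0.50 to 0.44. Counts of genes called moved more. Those for iBRD9 with RANKL went from 320 to 499 with only the groups compared and to 199 to 411 with single libraries left out. Those for iBRD9 without RANKL went from 787 to 452 and to 463 to 1104. The interaction count of 241 became 388 without the low-count filter, 368 with DESeq2 and 73 to 541 with single libraries left out. The libraries whose omission moved a count by over 1.5 times were replicates 1 (200), 2 (199) and 4 (207) of MR + vector and 4 of MR + iBRD9 (205) for iBRD9 with RANKL, and replicates 3 (511) and 4 (483) of M + vector and 2 of M + iBRD9 (463) for iBRD9 without RANKL. For the interaction they were replicate 3 of M + vector (102), 2 (123) and 4 (541) of M + iBRD9, 2 (73) and 4 (158) of MR + vector and 4 of MR + iBRD9 (73). Scaled by total counts, 38.5% in place of 25.9% of the calls for iBRD9 with RANKL and 67.3% in place of 48.1% of the interaction calls were higher. With CPM in place of FPKM the order of the 5 genes was the same, and the number of overlapping neighbours went from 1 to 2 in M + iBRD9, to 0 in MR + vector and to 0 in MR + iBRD9. The causes of these shifts were not tested.

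The replicate numbers gave little sign of pairing the samples, which does not exclude it. Of 24 pairs of same-numbered libraries, 2 had a correlation over 0.1 (range -0.045 to 0.14), and 6 of 16 libraries correlated best with their own number. Both pairs were of replicate 4, M + iBRD9 with M + vector (0.14) and with MR + iBRD9 (0.113). With the replicate block the interaction count was 421 and no call of a Ly6 gene changed. Depth limits Ly6c1 and Ly6i, with 4 and 123 counts in all.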
